A study of Homo sapiens with 6 samples.

Results

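The genes described here carry cells through G2 and mitosis. They are 45 genes, taken by symbol from the 39012 rows of a deposited table of gene expression, and all 45 were found there in 1 row each. The choice used no measured value of the table, but the list was drawn up when earlier results of these libraries were known. RNA was sequenced from Jurkat cells, a long-established human T cell leukaemia line that grows in suspension. Of the 6 libraries, 3 came from cells with an empty vector (EV) and 3 from cells that stably overexpressed SCML4, a Polycomb-group protein. Both groups had been kept for 6 h in PMA at 100 ng/ml with ionomycin at 1 µM, which together switch on protein kinase C and calcium signalling, so no library shows unstimulated cells. The labels do not give the promoter behind SCML4, do not say whether either line is 1 clone, and do not tie the libraries of a group to separate cultures. The p-values below therefore rest on differences among libraries that may be technical only.

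In a dividing cell, cyclin B and CDK1 drive entry into mitosis, the spindle assembly checkpoint holds anaphase back until each chromosome is attached, and the anaphase-promoting complex then destroys securin and the cyclins. Transcripts of these genes are low in G1 and build up through G2. Their promoters are held down by the DREAM complex in resting cells and are switched on by B-MYB, the MuvB core and FOXM1. Since the level of such a transcript in a bulk sample follows the share of cells in G2 and mitosis, fewer such cells and less RNA per cell cannot be told apart here. In T cells, PMA with ionomycin can both start and halt division, and Jurkat cells divide without it.

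The promoters of many of these genes carry a recognisable grammar, shown here because its motifs were more frequent among them than in all genes. A CHR element, searched here only as the letters TTTGAA, lies close to the start of transcription and is bound by MuvB. CCAAT boxes, bound by NF-Y, often lie before it. In CDC20 they lie 100 and 55 bases before the start, on either side of TTTGAA at 65. Order and spacing were not counted over the set. Other forms of the CHR element were not searched for, so a gene without TTTGAA is not shown to lack it. The stretches below are the 110 bases before the start, from RefSeq on GRCh38.p14, 5′ to 3′ along the gene. Capitals mark TTTGAA and CCAAT on either strand (TTCAAA and ATTGG on the other strand). PLK1, CDC20, CKS2 and ESPL1 are shown for their values below, CCNB2 as a cyclin with both elements, and CCNA2 as one with a CCAAT box and no TTTGAA. These 6 were chosen with their values known.
PLK1, chr16:23678779-23678888, plus strand: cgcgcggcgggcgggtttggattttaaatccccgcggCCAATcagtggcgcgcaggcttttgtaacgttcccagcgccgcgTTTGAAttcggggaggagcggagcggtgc
CDC20, chr1:43358871-43358980, plus strand: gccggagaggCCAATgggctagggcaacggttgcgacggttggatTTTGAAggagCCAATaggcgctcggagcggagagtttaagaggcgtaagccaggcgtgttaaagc
CKS2, chr9:89311085-89311194, plus strand: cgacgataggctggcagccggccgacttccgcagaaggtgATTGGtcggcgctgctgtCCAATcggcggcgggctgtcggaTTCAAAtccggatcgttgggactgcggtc
ESPL1, chr12:53268189-53268298, plus strand: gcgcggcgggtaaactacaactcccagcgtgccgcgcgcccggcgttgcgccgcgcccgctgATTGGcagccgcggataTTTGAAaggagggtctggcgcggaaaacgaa
CCNB2, chr15:59105036-59105145, plus strand: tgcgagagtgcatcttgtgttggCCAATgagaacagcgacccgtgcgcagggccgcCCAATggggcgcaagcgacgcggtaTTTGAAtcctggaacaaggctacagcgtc
CCNA2, chr4:121823884-121823993, minus strand: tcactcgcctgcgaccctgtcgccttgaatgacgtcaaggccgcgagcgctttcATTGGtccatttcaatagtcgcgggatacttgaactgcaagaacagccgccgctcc

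In PLK1, CKS2 and CCNB2 the first letter of TTTGAA lay 29 bases before the start, in ESPL1 31 bases and in CDC20 65 bases. RefSeq windows around the start, all of 1 length, were found for 37 of the 45 genes, 47 windows in all. TTTGAA was in 30 of the 47 windows (63.8%), against 15.2% of the 35116 windows of all genes. CCAAT was in 36 (76.6%, against 34.6%), and both motifs were in 25 (53.2%, against 5.9%). TTTGAA lay wholly within the 50 bases before the start in 17 windows (36.2%, against 2.3%). Both strands were searched, adjoining matches of the 2 motifs may share letters, and a match is a run of letters, not a shown binding site. The 27 genes with TTTGAA had a median log2 difference between SCML4 and EV of -0.01 (from -0.12 to 0.42), and the 10 without it 0.10 (from -0.01 to 0.15). Without the library EV replicate 1, described next, the medians were 0.07 and 0.13. The difference between these sets was not tested.

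SCML4 itself separated the groups as labelled. Its reads were 7, 2 and 1 in EV replicates 1 to 3 and 570, 657 and 506 in SCML4 replicates 1 to 3. On log2(CPM + 1) the difference was 5.55 (limma-trend, adjusted p = 1.64e-09). CPM is reads per 1000000 reads of a library, and libraries held 8953671 to 10336597 reads. The difference of a gene is always the mean of SCML4 minus the mean of EV on log2(CPM + 1). The 10 T cell genes checked (CD3D, CD3E, LCK, ZAP70 and others) had 719 to 7359 reads each in every library. Of 13 marker genes of other cell types found in the table, 6 were at 0 in each library, and 2 passed the filter used below, the B cell receptor chain CD79A with 207 to 338 reads per library and the collagen gene COL1A1 with 13 to 24. The first EV library lay far from the rest, at -30.3 on the first principal component against 2.3 to 8.1. Its deviation from the mean of the libraries correlated with transcript GC content at a Spearman coefficient of -0.52 over 13344 genes, where the other libraries had 0.05 to 0.30. Differences were therefore also computed without EV replicate 1, as a fit of 2 against 3 libraries, and are given where this changed the sign or moved the value by over 1.5 times.

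Mitotic transcripts were abundant in both groups. The 45 genes together took 7236, 6565 and 6654 CPM in the EV libraries and 6718, 7000 and 7243 CPM in the SCML4 libraries, so that EV replicate 1 lay level with the highest SCML4 library and the groups overlapped. MKI67, the proliferation marker that coats mitotic chromosomes, had the highest mean at 868 CPM, followed by the kinetochore protein gene CENPF and the DNA topoisomerase gene TOP2A. Levels were also set per kilobase of exonic length (GENCODE 29), which compares genes only roughly. That length joins all exons of a gene, and the doubt about symbols given under processing applies here too. CDK1 came first at 128 CPM per kb, then TOP2A at 111, CCNB1 at 87.4 and CCNA2 at 82.2. At the low end stood the phosphatase gene CDC25C at 7.76 and the kinesin gene KIF4A at 6.11 CPM per kb.

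PRC1 and NUSAP1, which bundle and organise spindle microtubules, were far below the others at 1.64 and 0.777 CPM per kb. PRC1 had 55 to 75 reads per library and NUSAP1 13 to 22, where each other gene of the set had at least 135 in each library. In GENCODE 29, 65.2% of the exonic bases of PRC1 and 72.8% of those of NUSAP1 also belong to another gene on the same strand. For the other 43 genes that share was at most 4.6%. How the authors counted reads that fall on 2 genes is not given in the sources used here, so these 2 levels are uncertain. Antisense overlap, which unstranded counting cannot separate, reached 10.7% of exonic bases in CDC25C and 8.9% in PLK1.

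No mitotic gene passed the test between the groups. Of the 45 genes 0 reached an adjusted p under 0.05 in limma-trend, where 1 of 14160 genes tested (0.00706%, SCML4 itself) did. All 45 passed the filter of a mean of 10 reads. The smallest adjusted p among them was 0.866. Before adjustment 5 genes had a p under 0.05 in limma-trend, all of them higher with SCML4 (PLK1, FOXM1, CKS2, CDC20 and ESPL1), where 3.34% of all genes were higher and 1.93% lower at that level. The differences ran from -0.12 (ECT2) to 0.42 (CKS2), 27 positive (all genes 52.4%) and 18 negative, with a median of 0.03 against 0.01 over all genes. The 95% intervals reached a median of 0.21 to either side of the estimate, and those of 41 genes lay wholly between -0.5 and 0.5. All 45 intervals lay between -1 and 1 on this scale, which understates fold changes of genes with few reads.

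**Figure D1:**
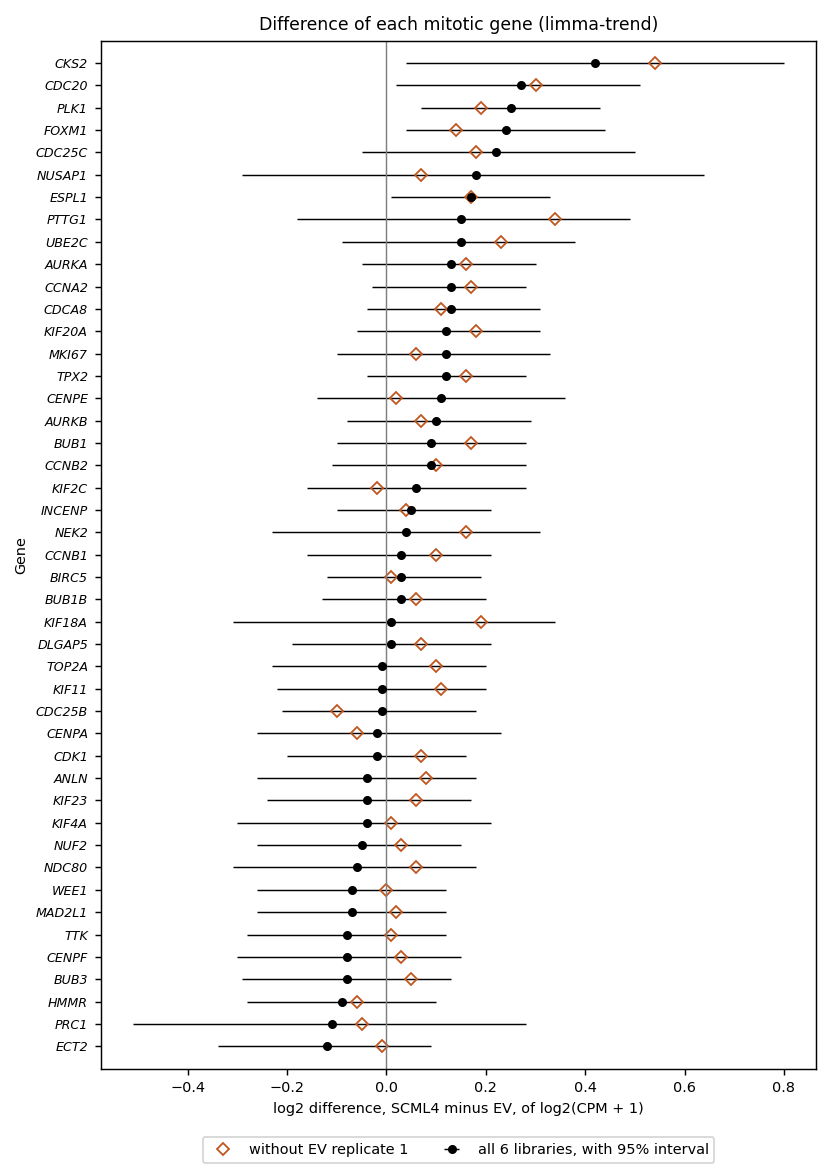
Difference between SCML4 and EV for each of the 45 genes on log2(CPM + 1). Black points and bars are the limma-trend estimate from all 6 libraries with its 95% interval, and open diamonds the estimate without EV replicate 1. Before adjustment the intervals of 5 genes lie above 0 (all genes 3.34%) and none lies below (all genes 1.93%). Of the diamonds 39 of 45 are positive (all genes 51.8%).

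In 8 of the 45 genes all 3 SCML4 libraries lay above all 3 EV libraries, and in 0 genes below. Over all genes tested 6.29% were apart in the first way and 5.36% in the second. The 8 genes were CCNA2, CDC25C, PLK1, FOXM1, ESPL1, CDCA8, AURKA and NUSAP1. With 3 libraries against 3, an exact two-sided permutation test cannot go below p = 0.1, the value of such a gene. Without SCML4 replicate 3 the remaining libraries lay above in 13 genes (all genes 11.3%) and below in 0 (all genes 10.6%). Against EV replicates 2 and 3 alone the SCML4 libraries lay above in 15 genes (all genes 12.1%) and below in 0 (all genes 10.0%). The 7 that joined the 8 were CDK1, BUB1, UBE2C, PTTG1, TPX2, KIF11 and KIF20A.

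Leaving out EV replicate 1 moved the set upwards, still with 0 calls. Its median difference became 0.07 (all genes 0.01), 39 of 45 were positive (all genes 51.8%), and 10 had an unadjusted p under 0.05 in limma-trend, all higher with SCML4 (all genes 4.08% higher and 2.61% lower). The smallest adjusted p was 0.393, that of CKS2, in limma-trend, and 14 of all 14160 genes (0.0989%) passed. Of the 18 negative differences 13 turned positive without that library, among them CDK1, TOP2A, CENPF, NDC80, NUF2, TTK, BUB3 and ANLN. With library weights, which gave EV replicate 1 a weight of 0.313, the counts at an unadjusted p under 0.05 were 13 in limma-trend (all genes 5.98% higher and 3.93% lower) and 11 in limma-voom (5.16% and 3.33%). Each of these genes was higher with SCML4, and 0 passed after adjustment. KIF2C, a microtubule-depolymerising kinesin, went the other way, from 0.06 to -0.02.

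Among the regulators of mitotic entry, 4 of 10 genes had groups that were apart, each with SCML4 higher. Of all genes tested 6.29% were apart in this way, and of the T cell genes 5 of 10. PLK1, the kinase that triggers centrosome maturation and mitotic entry, stood at 120, 130 and 143 CPM in the EV libraries and at 164, 152 and 151 CPM in the SCML4 libraries. The groups did not overlap, and EV replicate 1 was the lowest of the 6. Its log2 difference was 0.25 with an SE of 0.08 and an interval of 0.07 to 0.43 (limma-trend, adjusted p = 0.866), or 0.19 without EV replicate 1. FOXM1, the transcription factor that switches on G2 genes, had 138, 164 and 173 CPM in EV and 178, 179 and 201 CPM in SCML4. Here too the groups were apart by a small margin, EV replicate 1 was lowest, and the log2 difference shrank from 0.24 to 0.14 without that library.

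CKS2, a small subunit that docks CDK1 onto its substrates, had the largest difference of the set and also a wide spread. It stood at 36.9, 23.3 and 34.0 CPM in EV and at 51.1, 43.1 and 32.3 CPM in SCML4. EV replicate 2 was the lowest library, and SCML4 replicate 3 lay below EV replicates 1 and 3, so the groups overlapped. The log2 difference was 0.42 with an SE of 0.18, and 0.54 without EV replicate 1. Its adjusted p in limma ranged from 0.111 to 0.990 over the alternatives, the lowest being that of limma-trend with library weights.

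CDK1, the kinase at the centre of mitosis, had a difference close to 0. Its levels were 297, 247 and 248 CPM in EV and 254, 263 and 261 CPM in SCML4, so that EV replicate 1 was highest and each SCML4 library lay between it and the other EV libraries. The log2 difference was -0.02 with an interval of -0.20 to 0.16, and 0.07 without EV replicate 1. CCNB1, the cyclin that activates CDK1, had 207, 182 and 175 CPM in EV and 200, 198 and 176 CPM in SCML4, with overlapping groups and a difference of 0.03, or 0.10 without EV replicate 1. CCNA2, the cyclin of S and G2 phase, had a tight SCML4 group, with means of 220 ± 10.98 and 240 ± 2.97 CPM (SD, n = 3) and a difference of 0.13. Its groups were apart. CCNB2 had a difference of 0.09 and CDC25C, which removes the inhibitory phosphate from CDK1, one of 0.22. The opposing kinase WEE1 had -0.07 and the phosphatase CDC25B -0.01, with overlapping groups, and these became 0.00 and -0.10 without EV replicate 1. In all, 7 of the 10 entry genes had positive differences, with a median of 0.11.

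**Figure D2:**
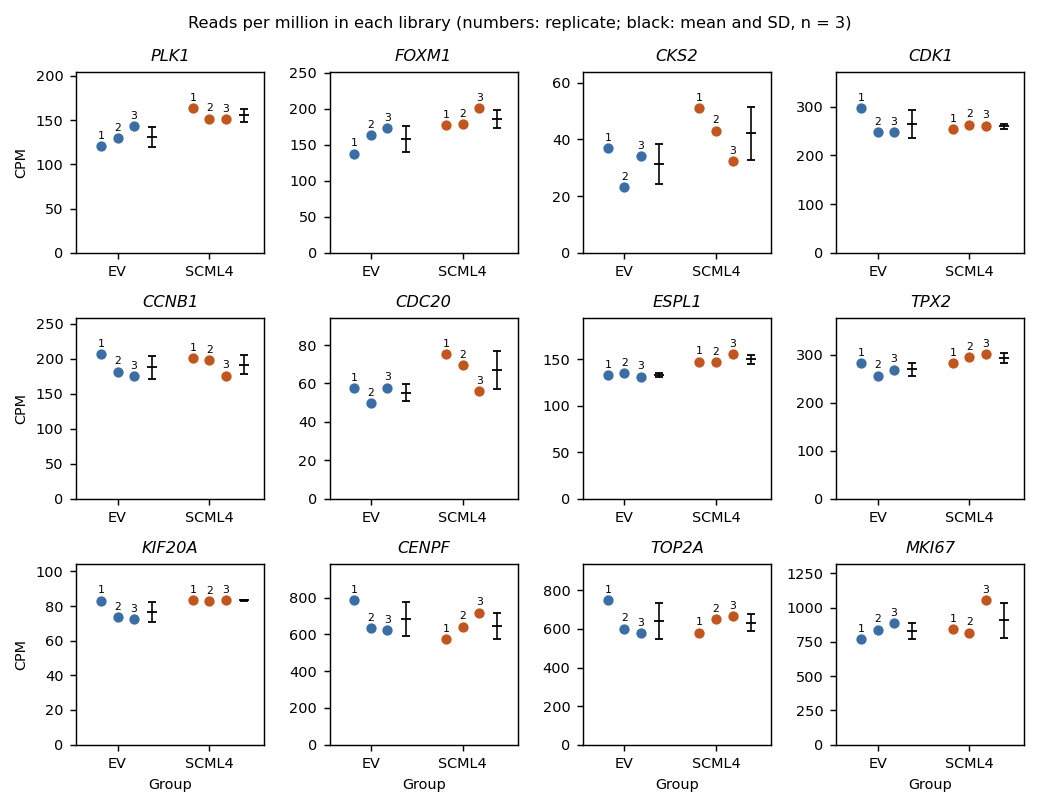
CPM of 12 genes in each library, with the replicate number above each point and the mean with SD (n = 3) in black, on axes that start at 0. The groups are apart in PLK1, FOXM1 and ESPL1. EV replicate 1 is the highest EV library in CKS2, CDK1, CCNB1, TPX2, KIF20A, CENPF and TOP2A.

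Genes of the spindle checkpoint and of anaphase gave 6 positive differences of 9, with a median of 0.09, or 9 of 9 and 0.17 without EV replicate 1. CDC20, which activates the anaphase-promoting complex, stood at 57.6, 49.96 and 57.9 CPM in EV and 75.3, 69.5 and 56.1 CPM in SCML4. SCML4 replicates 1 and 2 lay above all EV libraries and replicate 3 among them. Its difference was 0.27 with an SE of 0.11 (adjusted p = 0.866 in limma-trend), and 0.30 without EV replicate 1. ESPL1, the separase that cuts cohesin at anaphase, had 133, 136 and 131 CPM in EV and 147, 147 and 156 CPM in SCML4. With a difference of 0.17 its groups were apart, and this value was the same without EV replicate 1.

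UBE2C, the ubiquitin-conjugating enzyme of the anaphase-promoting complex, stood at 50.04, 38.9 and 45.9 CPM in EV and 52.9, 50.2 and 45.9 CPM in SCML4. EV replicate 2 was low and the groups overlapped, with a difference of 0.15, or 0.23 without EV replicate 1. PTTG1, the securin that restrains separase, had the same difference of 0.15, which became 0.34 without EV replicate 1, its highest library. The checkpoint genes proper lay near 0. BUB1 had 0.09 and BUB1B 0.03, or 0.17 and 0.06 without EV replicate 1, whereas MAD2L1 (-0.07), TTK (-0.08) and BUB3 (-0.08) had small negative values with EV replicate 1 highest in each. Without that library these 3 values were 0.02, 0.01 and 0.05.

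Of the 5 kinetochore genes 4 had negative differences, with a median of -0.05, and without EV replicate 1 only CENPA remained negative. CENPE, a kinesin that carries chromosomes to the spindle equator, had 91.2, 98.3 and 122 CPM in EV and 109, 128 and 100 CPM in SCML4. Its libraries were mixed between the groups, at a difference of 0.11 that became 0.02 without EV replicate 1, its lowest library. CENPF, a coiled-coil protein that loads onto kinetochores in G2, had 788, 633 and 623 CPM in EV and 576, 643 and 719 CPM in SCML4, a difference of -0.08, or 0.03 without EV replicate 1, its highest library. NUF2, a subunit of the complex that grips microtubules, had 75.9, 62.7 and 63.9 CPM in EV and 63.1, 63.8 and 67.3 CPM in SCML4, again with EV replicate 1 highest, and its difference of -0.05 became 0.03. Its partner NDC80 went from -0.06 to 0.06 and the centromeric histone gene CENPA from -0.02 to -0.06 on leaving out that library.

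The chromosomal passenger complex, which corrects faulty attachments, had 4 positive differences of 4, from 0.03 to 0.13. CDCA8, the borealin subunit, had 110, 116 and 116 CPM in EV and 118, 123 and 135 CPM in SCML4, with the groups apart by a narrow margin. AURKB, its kinase, had 67.7, 77.0 and 67.2 CPM in EV and 76.9, 73.7 and 77.0 CPM in SCML4. EV replicate 2 lay level with the highest SCML4 libraries, so the groups overlapped. INCENP, the scaffold, had 203, 212 and 203 CPM in EV and 205, 213 and 223 CPM in SCML4, also overlapping. BIRC5 (survivin) had a difference of 0.03, or 0.01 without EV replicate 1.

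Among the 10 genes of spindle and centrosome 7 had positive differences, with a median of 0.03, or 0.09 without EV replicate 1. TPX2, which nucleates microtubules around chromosomes, stood at 283, 256 and 269 CPM in EV and 282, 296 and 302 CPM in SCML4. EV replicate 1 lay just above the lowest SCML4 library, and the difference was 0.12. AURKA, the centrosomal kinase that TPX2 activates, had 77.1, 70.7 and 74.3 CPM in EV and 82.6, 80.7 and 79.2 CPM in SCML4, with the groups apart and a difference of 0.13. HMMR, a spindle assembly factor, had 95.3, 88.0 and 90.0 CPM in EV and 83.7, 94.8 and 78.6 CPM in SCML4. Its value of -0.09 was the lowest of the role, and SCML4 replicate 2 lay among the EV libraries. The kinesins KIF11 (-0.01), KIF18A (0.01), KIF2C (0.06) and KIF4A (-0.04) lay near 0, as did DLGAP5 (0.01) and NEK2 (0.04). Without EV replicate 1 KIF11 had 0.11, KIF4A 0.01, DLGAP5 0.07 and NEK2 0.16. NUSAP1, with its few and uncertain reads, had 0.18, or 0.07 without that library. In KIF18A, which trims kinetochore microtubules, EV replicate 1 lay 0.42 in log2 above the mean of the other 5 libraries, and its difference became 0.19 without it.

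Of the 5 genes of the central spindle and cytokinesis 1 had a positive difference. KIF20A, the kinesin that carries passenger proteins to the midzone, had 83.2, 73.6 and 72.6 CPM in EV and 83.3, 82.8 and 83.5 CPM in SCML4. EV replicate 1 lay within the narrow SCML4 range, and the difference was 0.12, or 0.18 without that library. ECT2, which activates RhoA at the cleavage furrow, had 151, 119 and 119 CPM in EV and 110, 124 and 122 CPM in SCML4. Its difference of -0.12 was the lowest of all 45 and became -0.01 without EV replicate 1, the single high library. PRC1 had 7.79, 6.13 and 7.44 CPM in EV and 6.18, 5.42 and 8.04 CPM in SCML4, with mixed libraries and the uncertain count named above, at a difference of -0.11, or -0.05 without EV replicate 1. KIF23 and ANLN each had a difference of -0.04 that turned positive without EV replicate 1, to 0.06 and 0.08.

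Of the pair of genes of mitotic chromosome structure, neither had groups that were apart. MKI67 stood at 768, 840 and 885 CPM in EV and 843, 818 and 1056 CPM in SCML4. SCML4 replicate 3 was alone at the top, and the others overlapped, with a difference of 0.12 and an interval of -0.10 to 0.33. Without EV replicate 1, its lowest library, the difference was 0.06. TOP2A had 751, 602 and 578 CPM in EV and 581, 653 and 667 CPM in SCML4. EV replicate 1 was alone at the top here, and the difference of -0.01 became 0.10 without it.

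**Figure D3:**
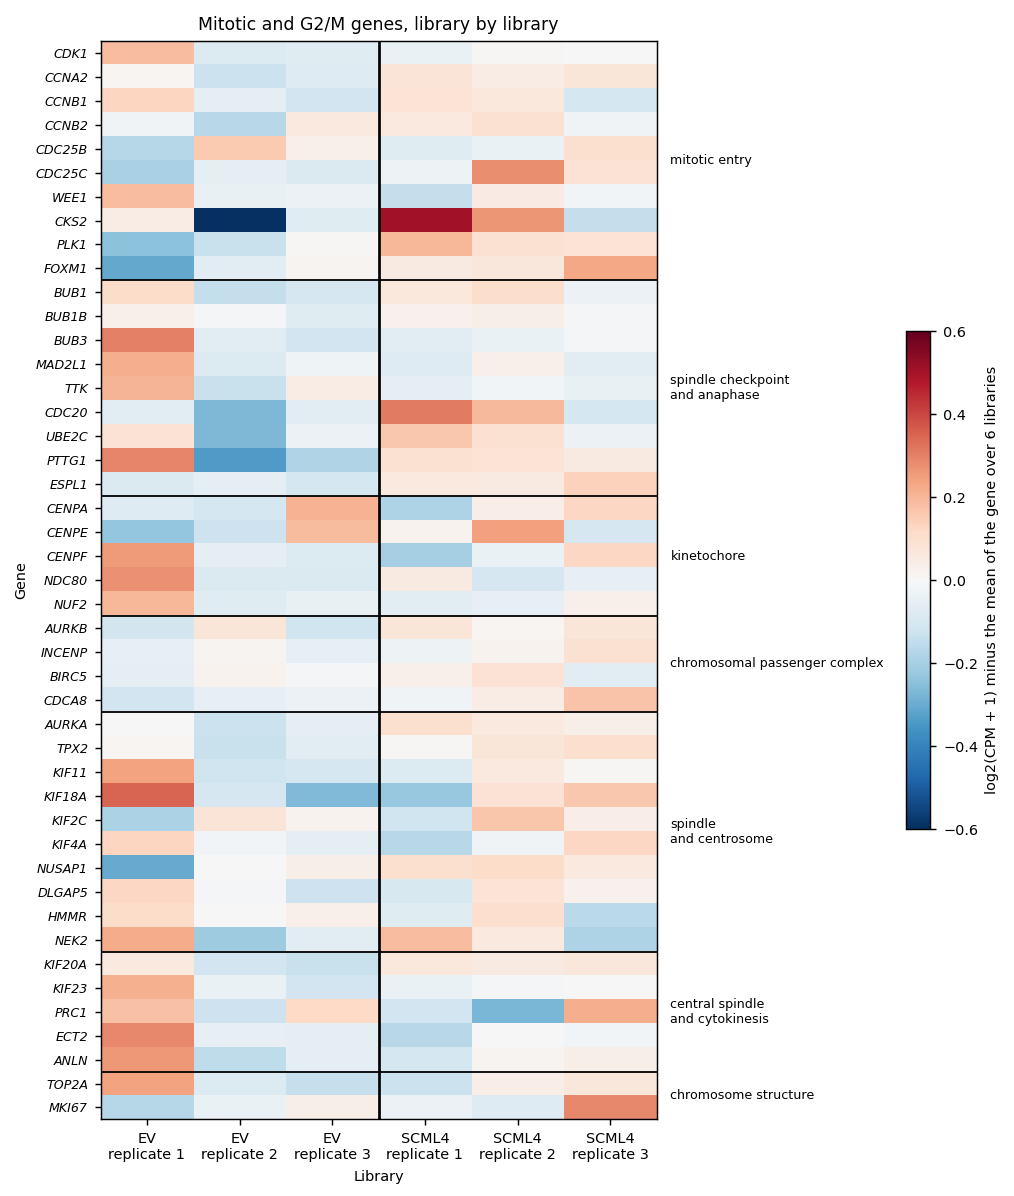
Each gene in each library as log2(CPM + 1) minus the mean of that gene over the 6 libraries, ordered by role, with EV libraries left of the line and SCML4 libraries right. EV replicate 1 holds the highest value in 21 genes (all genes 27.9%) and the lowest in 10 (all genes 28.3%). EV replicate 2 holds the lowest in 16 (all genes 14.2%).

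Library by library, 1 EV library did not resemble the other 2. EV replicate 1 was the highest of the 6 libraries in 21 of the 45 genes, where 27.9% of all genes had their highest value there. It was the lowest in 10, where 28.3% of all genes had their lowest value there. The median deviation of the 45 genes from their means was 0.09 in EV replicate 1, -0.08 and -0.06 in EV replicates 2 and 3, and -0.03, 0.05 and 0.03 in SCML4 replicates 1 to 3, with all genes between 0.00 and 0.02. Set against EV replicate 1 singly, the SCML4 libraries were higher in 20, 22 and 18 of the 45 genes. Against EV replicate 2 they were higher in 30, 39 and 38, and against EV replicate 3 in 30, 38 and 35. Between the libraries of the control group alone, EV replicate 2 lay below EV replicate 1 by a median of 0.17 in log2, more than any SCML4 library lay above EV replicate 2, where the median was at most 0.13.

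The place of EV replicate 1 followed GC content among these genes. The 24 genes with transcripts under 45% GC had a median deviation of 0.24 in EV replicate 1 against the mean of the other 5 libraries, and it was their highest library in 19 of 24. The 21 genes with at least 45% had a median deviation of -0.08, and it was highest in 2. Over the 45 genes the Pearson correlation of GC content with that deviation was -0.62, a description across genes that share the same libraries. With the difference between SCML4 and EV it was 0.46, and 0.10 without EV replicate 1. Over the 13344 genes tested with known GC content the medians had the same directions, 0.15 under 45% GC and -0.09 from 45% upwards. EV replicate 1 was the highest library in 53.3% and 15.1% of them.

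The lower-GC mitotic genes had a median difference of -0.02 with all libraries and 0.06 without EV replicate 1, and the higher-GC ones 0.12 and 0.11. Among the higher-GC genes are PLK1, FOXM1, CDC20 and ESPL1, at 54.3% to 57.2% GC. CKS2 has 41.4%. CENPE, picked out after its values were seen, ran against the trend, with 35.5% GC, the lowest of the 45, and its lowest level in EV replicate 1. After each library had been corrected for GC content and exonic length, the median of the 45 genes was 0.06 (all genes 0.00), with 31 of 45 positive (all genes 51.0%). PLK1 then had 0.17, FOXM1 0.19, CDC20 0.19, ESPL1 0.12 and CKS2 0.42, and 0 genes of the set passed. The 10 T cell genes, with a median of 53.2% GC, had a median difference of 0.13 with all libraries and 0.05 without EV replicate 1.

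**Figure D4:**
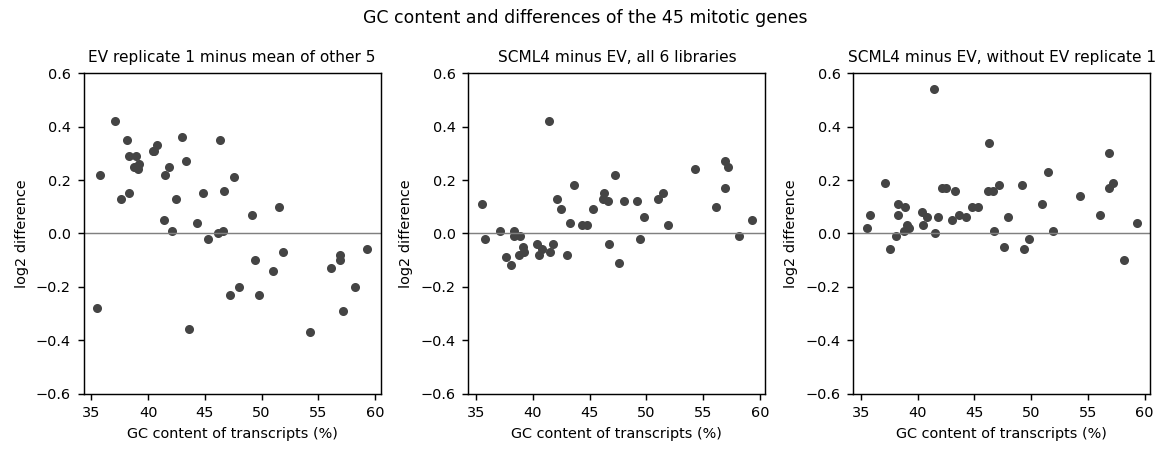
Transcript GC content (%) of the 45 genes against 3 log2 differences on the same scale, namely EV replicate 1 minus the mean of the other libraries, SCML4 minus EV, and SCML4 minus EV without EV replicate 1. Pearson correlations are -0.62, 0.46 and 0.10.

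Other genes of division, listed by function beside the 45, gave 0 calls in limma-trend with all libraries and 0 without EV replicate 1. Condensin, cohesin and their control genes had 7 positive of 19 and a median of -0.05, or 11 of 19 and 0.01 without EV replicate 1. STAG2, a cohesin subunit, was at -0.21, or -0.10 without that library. Further kinetochore genes had 11 positive of 25 and a median of -0.01, or 16 of 25 and 0.02 without EV replicate 1. SPC24, a subunit of the complex of NDC80 and NUF2, was at 0.23 with all SCML4 libraries above all EV libraries. CENPQ was at -0.34 with all SCML4 libraries below. Of the 25 genes 3 were apart upwards (all genes 6.29%) and 1 downwards (all genes 5.36%). MAD1L1, with 9 to 31 reads per library, was at -0.42. Further spindle and cytokinesis genes had 11 positive of 21, or 19 of 21 without EV replicate 1, with the kinesin gene KIFC1 at 0.27 (0.17 without it) and TACC3 at 0.16.

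Subunits and partners of the anaphase-promoting complex had 5 positive of 17 and a median of -0.03. ANAPC5, a scaffold subunit, averaged 188 ± 16.4 CPM with the empty vector and 156 ± 6.61 CPM with SCML4 (SD, n = 3). Its difference was -0.27 with all SCML4 libraries below all EV libraries. It was the 1 such gene of the 17 (all genes 5.36%), and 0 lay above (all genes 6.29%). UBE2S, the enzyme that extends the chains UBE2C starts, was at 0.32 with overlapping groups, and FZR1 at 0.17. Other G2 and M control genes had 12 positive of 17, with the cyclin F gene CCNF at 0.19 (0.12 without EV replicate 1), CDKN3 at 0.24 and the stress gene GADD45A at 0.38.

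Of the MuvB, DREAM and NF-Y factors, 7 of 16 had positive differences, with a median of -0.05. Without EV replicate 1 these became 8 of 16 and 0.00. MYBL2, which encodes B-MYB, stood at 182, 237 and 252 CPM in EV and 272, 261 and 267 CPM in SCML4. The groups were apart, EV replicate 1 was lowest, and the difference of 0.27 became 0.13 without it. TFDP2, a DP partner of E2F factors, was at -0.28, or -0.09 without EV replicate 1. The pocket protein gene RBL1 was at -0.14, and in both all SCML4 libraries lay below all EV libraries. Of the 16 genes 2 were apart upwards (all genes 6.29%) and 2 downwards (all genes 5.36%). Genes of G1/S and replication had 12 positive and 15 negative of 27, with a median of -0.01. In TYMS (0.22), CDT1 (0.27) and MCM7 (0.13) all SCML4 libraries lay above all EV libraries. These were the 3 such genes of the 27 (all genes 6.29%), and 1 gene lay below (all genes 5.36%). Without EV replicate 1 this list had 9 positive of 27 and a median of -0.02, with CDT1 at 0.15 and MCM7 at 0.06.

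**Figure D5:**
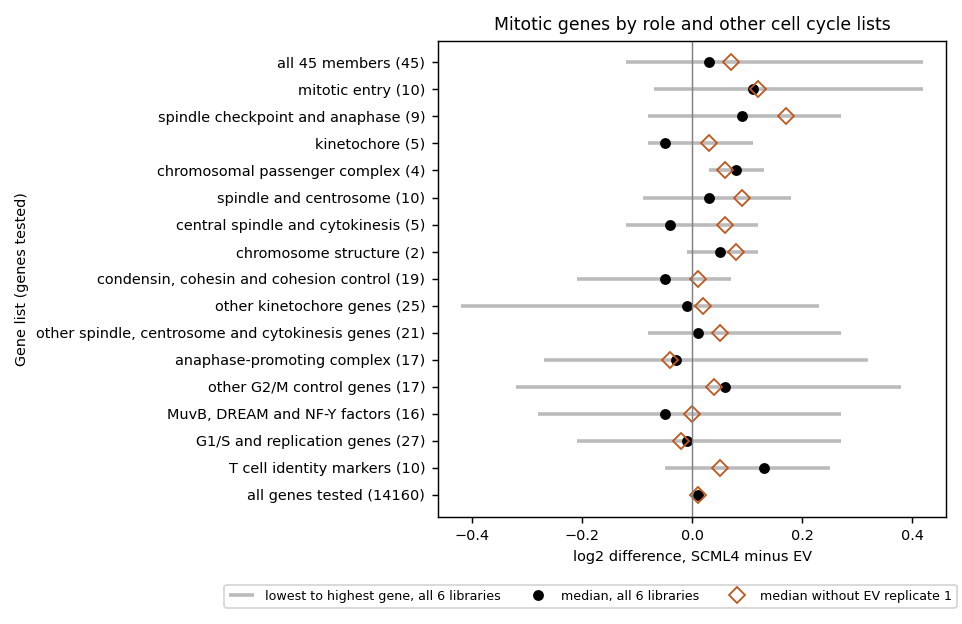
Median log2 difference (SCML4 minus EV) of each list with all 6 libraries (black) and without EV replicate 1 (open diamonds), with the range from the lowest to the highest gene in grey and the number of genes tested in brackets. Medians with all libraries lie between -0.05 and 0.13, and the 45 genes have 0.03, or 0.07 without EV replicate 1.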

How the data were processed

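Per the labels' protocols, TRIzol was used to extract RNA and a SMARTER mRNA-Seq kit to prepare it for sequencing. The submitters' processing notes list FastQC, STAR, SAMtools and hg19. For the counting tool, annotation and gene lengths, nothing is given in the sources used here. The authors deposited FPKM, 1 column per library per the file headers. The lengths behind these FPKM were not those of the named genes (Spearman coefficient 0.003 with GENCODE 29 exonic lengths over 13347 genes), which leaves a doubt whether each symbol stands beside its own values. No other identifier was at hand to settle this gene by gene. By symbol, SCML4 followed its labels, T cell genes were present, and the deviation of EV replicate 1 correlated with GC content. Reads and library totals were therefore worked out from the steps between FPKM values, which the planned design foresaw. All 23897 rows above 0 came out whole, within 0.002 of a read, and gave whole lengths. A common divisor of a gene's reads that also divides the length cannot be seen.

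SCML4 was compared with EV by limma-trend (limma 3.58.1, R 4.3.3) on log2(CPM + 1), keeping the 14160 genes that averaged 10 reads or more, with Benjamini-Hochberg adjustment over all of them and a threshold of 0.05. The procedures were tested on simulated data. These held no outlying library like EV replicate 1, so they do not show how limma-trend behaves with one. All genes of the set were described. Those given library by library were up to 3 of smallest p per role, with PLK1, CDK1, CCNB1 and FOXM1, and up to 3 were named from each companion list. Genes and lists were chosen with earlier results of these data known. A GENCODE 29 length and GC content was found for 94.26% of genes. The chi-square per gene between replicates was 2.60 to 11.1, so no library was a duplicate. RefSeq promoters were matched by symbol.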

Additional observations from a re-analysis of the deposited data

How the results depend on the processing

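The count of 0 among the 45 genes (5 at an unadjusted p under 0.05 in limma-trend) was also found under each of 21 alternatives, and their median difference stayed between 0.00 (without SCML4 replicate 2) and 0.08, within 1 SD between libraries (0.07) of 0.03. Of 943 single values under alternatives 940 moved by less than 1 SD, 88 had another sign than with all libraries, and 23 genes kept 1 sign throughout, 20 of them positive. The smallest adjusted p in limma was 0.111 (CKS2, limma-trend with library weights). Over all genes the calls numbered 0 on log2(FPKM + 1), where SCML4 had an adjusted p of 0.0619 and NUSAP1 fell below the filter. They numbered 2 under median-of-ratios scaling, 3 under quantile normalization, 3 after GC and length correction, 14 in limma-voom with library weights, 19 in limma-trend with library weights, and 1 to 14 on leaving out a library, 14 being without EV replicate 1. Chosen after seeing the data were limma-voom (13) and the GC and length correction (12), both without EV replicate 1. The cause was not tested. With a replicate block there were 2 calls and still 0 among the 45. Same-numbered libraries share only a number, with correlations of their deviations of -0.06, -0.11 and -0.05. NUSAP1 and PRC1 are limited by their reads.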
